A study of Homo sapiens with 32 samples.

Results

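The genes described here are the protein-coding ZNF genes on the short-arm side of human chromosome 19. They were chosen as RefSeq genes of assembly GRCh38.p14 with a symbol of ZNF followed by a digit and a start below 26 Mb, which gave 84 genes of 19970 protein-coding genes on chromosomes 1 to 22 and X. Of these, 39 start between 8 and 13 Mb, 37 between 19 and 25 Mb, and 8 elsewhere (ZNF554, ZNF555, ZNF556, ZNF57, ZNF77, ZNF557, ZNF358 and ZNF333). The data are 2 deposited lists of H3K9me3 peaks from chromatin immunoprecipitation with sequencing (ChIP-seq), 1 for LOVO and 1 for RKO, both established colon adenocarcinoma cell lines. By their titles the 8 H3K9me3 libraries of the series come from LOVO and RKO cells with control short hairpin RNA (shControl) or with METTL3 knockdown (shMETTL3), 2 libraries for each. The lists name no library or condition, so neither the knockdown nor the METTL3 ChIP was analysed here. A list of regions holds no expression values, and the identity of the lines was not checked against markers.

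H3K9me3, trimethylated lysine 9 of histone H3, is a mark of constitutive heterochromatin. Most ZNF genes of chromosome 19 encode C2H2 zinc finger proteins with a KRAB domain, which binds TRIM28 and through it the H3K9 methyltransferase SETDB1, and many of these proteins silence transposable elements. The genes arose by tandem duplication and stand in clusters. The array of zinc fingers is typically encoded by a single long last exon, and H3K9me3 over the distal part of ZNF genes is known from many human cell types.

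Each list is used as deposited, without score, replicate or read depth. There were 14901 LOVO peaks, which together span 39.9 Mb. RKO had 22130, spanning 70.4 Mb. Many peaks had a width of exactly 2001 bp, the commonest value, with 54.6% of the LOVO and 38.2% of the RKO list. With 1 list per line there is no spread between replicates, so no test was made and every value below is a description. Copy number, input signal and the treatment of reads that match several similar genes were not analysed here, and their part in the differences was not tested. Where bodies of these genes overlap, as for 8 of them, the same bases count for each gene.

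H3K9me3 lay over most of these ZNF genes in LOVO and over fewer in RKO, and in both lines more often in the 8 to 13 Mb cluster than in the 19 to 25 Mb cluster. A gene was counted as marked where a peak covered at least 1 bp of its body, from annotated start to end. In LOVO 56 of 84 genes (66.7%) were marked, where 15.0% of all protein-coding genes were. In RKO 26 of 84 (31.0%) were marked, against 19.8% of all protein-coding genes. The backgrounds thus run the other way, with more genes marked in RKO than in LOVO.

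In the 8 to 13 Mb cluster, 32 of 39 genes (82.1%) had a LOVO peak and 19 (48.7%) an RKO peak. In the 19 to 25 Mb cluster, 18 of 37 (48.6%) had a LOVO peak and 5 (13.5%) an RKO peak, the last a share below the RKO background. Of the 8 other genes, 6 had a LOVO and 2 an RKO peak. The median gene length was 22.4 kb in the 8 to 13 Mb cluster and 34.6 kb in the 19 to 25 Mb cluster, and the part of length in the difference was not tested. Among genes of 20 to 50 kb, LOVO peaks marked 18 of 21 in the 8 to 13 Mb cluster and 13 of 29 in the 19 to 25 Mb cluster, and RKO peaks 12 and 4. Of all protein-coding genes of that length, 10.1% were marked in LOVO and 15.5% in RKO.

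Other genes of the 8 to 13 Mb window were marked less often than the background, while those at 19 to 25 Mb were near it. Among 114 protein-coding genes of the 8 to 13 Mb window that are not ZNF genes, 3 had a LOVO peak (2.63%) and 6 an RKO peak (5.26%). Among 24 such genes at 19 to 25 Mb, 4 had a LOVO peak (16.7%) and 3 an RKO peak (12.5%). In RKO these neighbours thus stood close to the ZNF genes of that window, at 13.5%, with 1.45% of their bodies covered against 1.08%. The median length of these neighbours was 10.2 kb at 8 to 13 Mb and 16.9 kb at 19 to 25 Mb. On the long arm of chromosome 19, LOVO peaks lay over 30.7% of the 166 ZNF genes and RKO peaks over 25.9%. On other chromosomes the shares were 41.2% and 27.3% of 267. The 8 to 13 Mb cluster thus lay above both of these ZNF groups in each line.

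**Figure D1:**
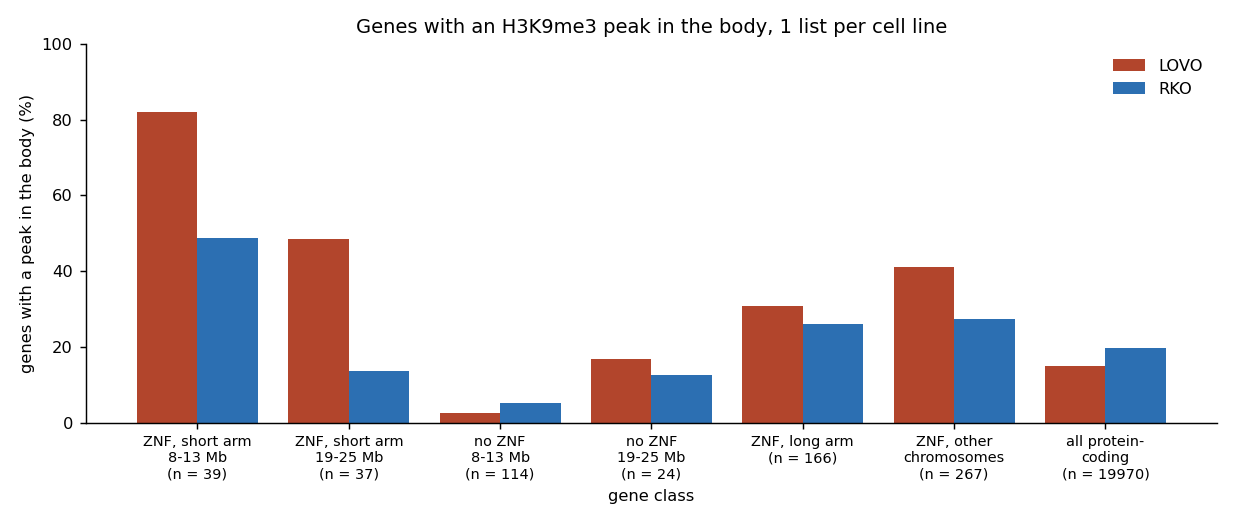
Percent of genes (vertical axis) with an H3K9me3 peak over at least 1 bp of the body, for 7 gene classes (horizontal axis, n below each), with 1 bar for LOVO and 1 for RKO. The 8 to 13 Mb ZNF genes reach 82.1% in LOVO and 48.7% in RKO, while genes that are not ZNF in the same window reach 2.63% and 5.26%.

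The 2 clusters also differed in how much of each body was covered. Summed over genes, LOVO peaks covered 15.4% and RKO peaks 12.8% of the bodies at 8 to 13 Mb. At 19 to 25 Mb they covered 4.30% and 1.08%, against 1.19% and 2.18% of all protein-coding bodies. For ZNF genes of the long arm the covered shares were 4.69% and 3.74%, and for those of other chromosomes 6.48% and 3.43%. The 19 to 25 Mb cluster thus lay below both of these ZNF groups in each line. Among marked genes the median covered share in LOVO was 16.8% in the first cluster and 7.10% in the second. Peaks over at least 10% of the body were found in 33 of 84 genes in LOVO and 16 in RKO, where 2.36% and 5.03% of all protein-coding genes reached that share. Among the 433 ZNF genes outside this group, 24.5% in LOVO and 13.4% in RKO did. Of the 33 and 16 genes, 24 LOVO and 13 RKO genes lay at 8 to 13 Mb. At 19 to 25 Mb there were 3 and 1, or 8.11% and 2.70% of the cluster.

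Within the 8 to 13 Mb cluster the genes fall into 2 blocks with an interval free of ZNF genes between them. The block below 11 Mb held 14 genes, of which 11 were marked in LOVO and 8 in RKO. The block from 11 Mb held 25, of which 21 and 11 were marked. In LOVO the longest runs of neighbouring genes with a peak held 10 genes each, from ZNF627 to ZNF433 and from ZNF20 to ZNF564. In RKO the longest such run had 5 genes, from ZNF439 to ZNF433.

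The most heavily covered genes of this cluster differed in which line covered them. ZNF69 (chromosome 19, 11887782 to 11980222) had the most bases under peaks over both lists, 18.3 kb in 6 LOVO peaks and 23.1 kb in 3 RKO peaks. Its annotated span encloses ZNF700 whole and overlaps ZNF763, so the values of these genes are not separate. ZNF700 (11925107 to 11950763) had 27.9% of its body under LOVO peaks and 62.8% under a single RKO peak. That peak, from 11934652 to 11951026, was with 16375 bp the widest over any of the 84 genes. ZNF433 (12014715 to 12035679) was likewise covered more in RKO, with 11.3 kb under 3 peaks against 1.71 kb under 1 LOVO peak.

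The neighbours ZNF560, ZNF426 and ZNF121 showed 3 different patterns within a short stretch. ZNF560 (9445876 to 9506692) had 7 RKO peaks over 19.9 kb, 32.8% of its body, and no LOVO peak. ZNF426 (9523223 to 9538645) was covered in both lines, over 51.6% of its body in LOVO and 40.1% in RKO. ZNF121 (9560329 to 9584504) had 4 LOVO peaks over 16.3 kb and no RKO peak, and its 67.3% was the highest covered share of the 84 genes in either line. The nearest LOVO peak lay 8.38 kb from ZNF560 and the nearest RKO peak 7.06 kb from ZNF121. The 3 genes follow one another along the chromosome with no other ZNF gene between them.

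Others of the most covered genes had peaks in both lines. In ZNF562 (9641807 to 9675100) the covered length was 5.54 kb for LOVO and 10.2 kb for RKO, and in ZNF44 (12224686 to 12294883) 8.85 and 4.97 kb. ZNF440 (11814273 to 11835216) and ZNF564 (12525373 to 12551482) were marked in LOVO only, with 8.24 and 7.18 kb. ZNF559 (9323772 to 9345871) was marked in RKO only, by 1 peak of 2001 bp. Most of its span lies within the readthrough gene ZNF559-ZNF177, which the same RKO peak touches and which had a LOVO peak further on. The 5 genes of this cluster without a peak in either list were ZNF414, ZNF653, ZNF878, ZNF844 and ZNF490, with lengths from 4.49 to 34.7 kb.

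**Figure D2:**
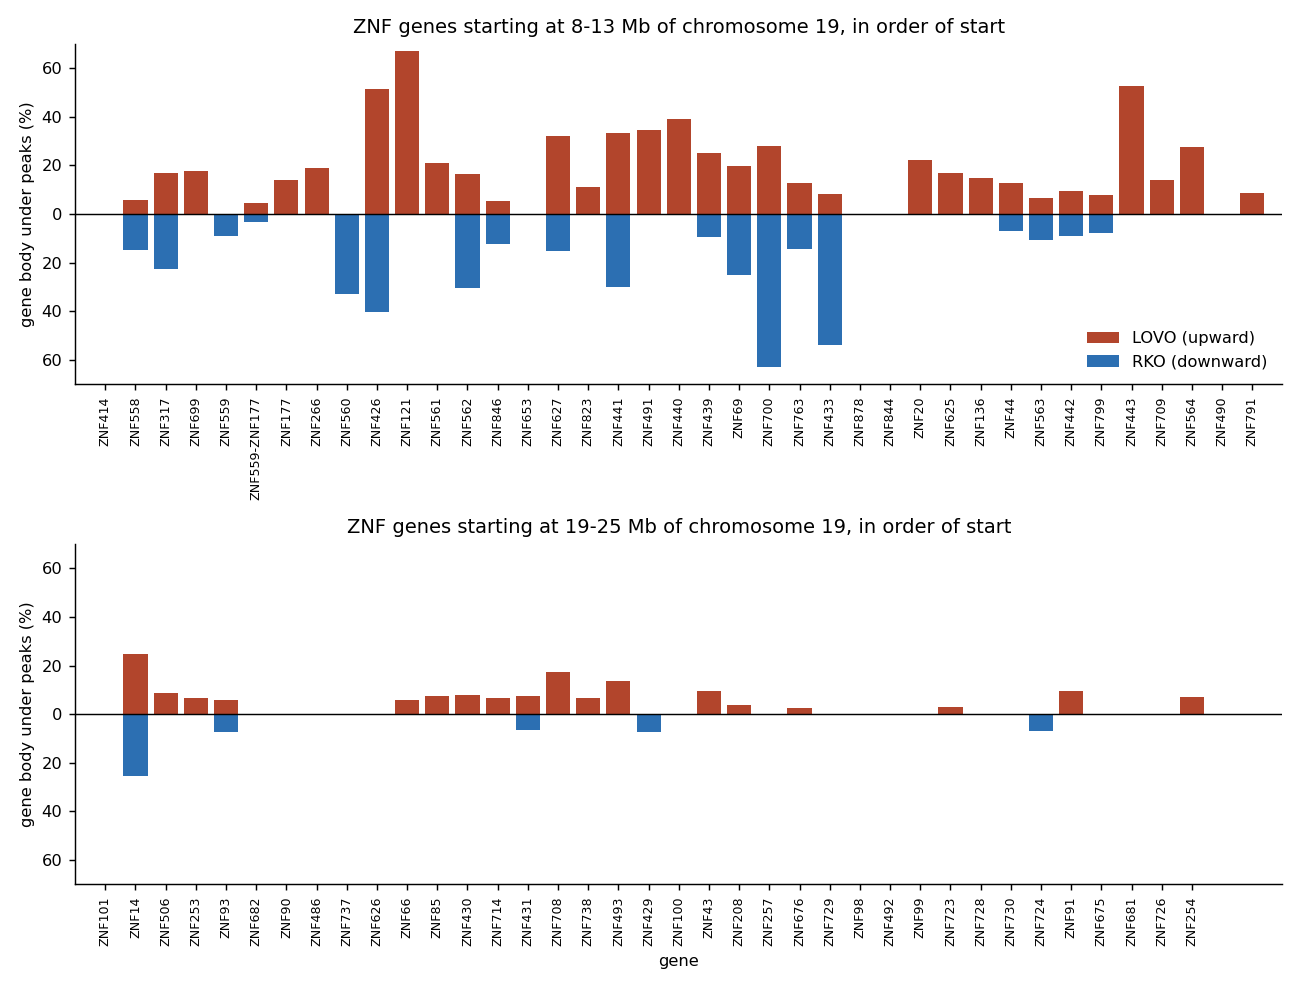
Percent of each gene body under peaks (vertical axis) for the 39 ZNF genes at 8 to 13 Mb (upper panel) and the 37 at 19 to 25 Mb (lower panel), in order of start along the horizontal axis, with LOVO drawn upward and RKO downward on one scale. ZNF121 is the tallest LOVO bar at 67.3% with no RKO bar, ZNF700 the tallest RKO bar at 62.8%, and no gene of the lower panel passes 24.9% in LOVO or 25.4% in RKO.

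The 19 to 25 Mb cluster, on the proximal short arm, includes genes expanded in the primate lineage. Its coverage was sparse, and most marked genes held a single peak: 13 of 18 in LOVO and 4 of 5 in RKO. ZNF14 (19710472 to 19733112) was the most covered gene over both lists, 5.63 kb in LOVO and 5.76 kb in RKO. It alone of the 37 reached 10% of the body in RKO. ZNF91 (23305004 to 23395471), which encodes a repressor of SVA retrotransposons, had 4 LOVO peaks over 8.69 kb and no RKO peak. ZNF93 (19900946 to 19935575), which encodes a repressor of LINE1 elements, had 1 peak in each line, of 2001 bp in LOVO and with 2.56 kb of the body in RKO.

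ZNF431 (21142040 to 21196053) also had 1 peak in each line, over 4.09 and 3.51 kb. Genes marked in LOVO only included ZNF254 (24033449 to 24129968, 6.67 kb), ZNF708 (21291160 to 21329410, 6.62 kb), ZNF43 (21804946 to 21852065, 4.52 kb) and ZNF493 (21397133 to 21427577, 4.17 kb). ZNF429 (21505602 to 21540668) and ZNF724 (23221599 to 23250394) were marked in RKO only, by 1 peak each, the second of 2001 bp. In RKO 12 genes in a row, from ZNF100 to ZNF730, had no peak. The longest genes without a peak in either list were ZNF730 (72.0 kb), ZNF100 (44.8 kb), ZNF682 (44.4 kb) and ZNF90 (43.2 kb), all in this cluster, and 5 genes in a row from ZNF682 to ZNF626 had none in either list.

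The low RKO count at 19 to 25 Mb went with few RKO peaks in the window as a whole. LOVO had 67 peaks there (11.2 per Mb) and RKO 29 (4.83 per Mb), while at 8 to 13 Mb the lines had 60 and 59. At 8 to 13 Mb, 76.7% of the LOVO and 54.2% of the RKO peaks touched one of the ZNF genes described here. At 19 to 25 Mb these shares were 38.8% and 20.7%, and 41.8% of LOVO and 55.2% of RKO peaks touched no annotated gene.

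Outside both clusters, ZNF557 (7069703 to 7087968) was marked in both lines, over 38.6% of its body in LOVO and 23.4% in RKO. ZNF333 (14689787 to 14733742) was as well, over 13.1% and 10.3%. Of the 5 genes between 2 and 3 Mb, 4 had a LOVO peak and none an RKO peak, though an RKO peak lay 0.398 kb from ZNF554. They included ZNF556 (2867335 to 2883445) and ZNF77 (2933218 to 2944971), each with 31.1% of the body under LOVO peaks. LOVO peaks without RKO peaks were also seen over the genes starting at 20 to 21, 22 to 23 and 24 to 25 Mb. ZNF57 and ZNF358 had no peak in either list.

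Between the lines, most genes with an RKO peak over at least 1 bp also had a LOVO peak, which did not hold under the strictest rule. Where 25% of the body had to be covered, 4 of 7 RKO genes were marked in RKO only, and at 10% 5 of 16 were. With only the peaks wider than their list's median, 6 of 17 were. RKO-only shares over all protein-coding genes were not computed under these rules. Of the 84 genes, 22 (26.2%) were marked in both lines, 34 (40.5%) in LOVO only, 4 (4.76%) in RKO only and 24 in neither. Over all protein-coding genes the shares were 10.2%, 4.80% and 9.61%. The 22 genes marked in both are 39.3% of those marked in LOVO and 84.6% of those marked in RKO. For ZNF genes of the long arm these shares were 31.4% and 37.2%, and for those of other chromosomes 47.3% and 71.2%. Over all protein-coding genes they were 68.0% and 51.5%. The 4 genes marked in RKO only were ZNF559, ZNF560, ZNF429 and ZNF724.

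In bases, 44 genes had more LOVO than RKO coverage and 15 the reverse, where 7.64% and 16.5% of all protein-coding genes did. The LOVO total was 1.59 times the RKO total over the 84 genes, 1.20 times at 8 to 13 Mb and 3.99 times at 19 to 25 Mb. ZNF genes elsewhere also had more LOVO than RKO bases. The totals were 219 and 175 kb on the long arm and 914 and 485 kb on other chromosomes, against 248 and 156 kb here. Among the 22 genes marked in both lines there was no such lean: 10 had more LOVO bases, 11 more RKO bases, and ZNF799 the same number. In these 22 genes LOVO peaks covered 111 kb and RKO peaks 129 kb, so the LOVO excess lay in genes that RKO peaks did not touch.

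**Figure D3:**
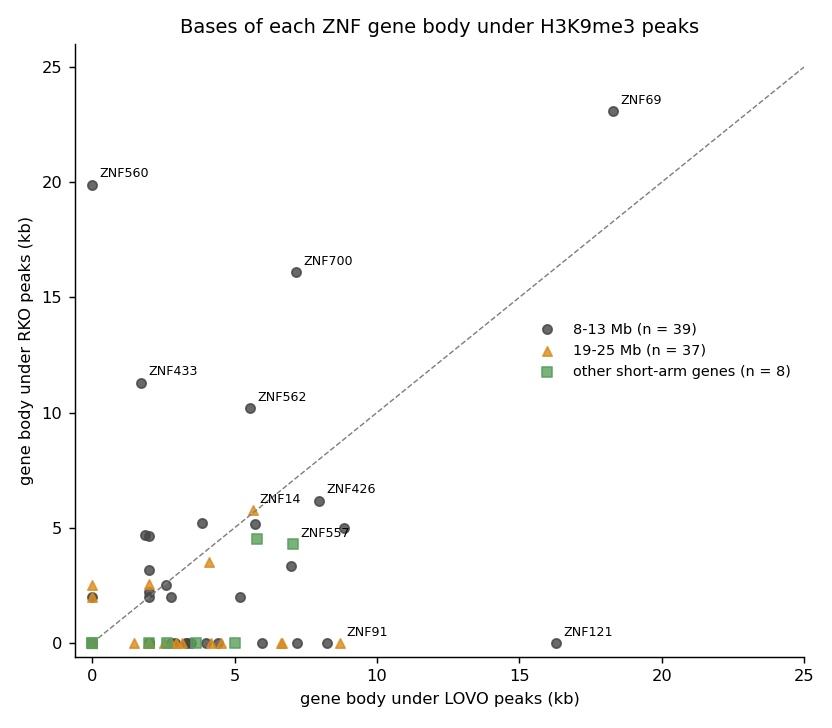
Kilobases of the body under LOVO peaks (horizontal axis) and RKO peaks (vertical axis) for each of the 84 ZNF genes, 1 point per gene, with shape and colour for the position on the chromosome and a dashed line of equal values. Many points lie on the horizontal axis, with 34 genes marked in LOVO only, and ZNF560 stands alone high on the vertical axis at 19.9 kb.

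A gene marked in both lines did not always carry the mark at the same place. In 13 of the 22 genes a LOVO and an RKO peak met within the body, and in 9 they did not. This share was not computed for other genes marked in both lines, so whether it is unusual was not tested. None of the 3 genes marked in both lines at 19 to 25 Mb (ZNF14, ZNF93 and ZNF431) had bases under both lists. Counted by peaks, 80 LOVO and 41 RKO peaks touched the 84 genes, and 14 of each met a peak of the other line, 17.5% and 34.1%. In the whole lists 35.4% of LOVO and 23.6% of RKO peaks did. At 19 to 25 Mb, 0 of 26 LOVO and 0 of 6 RKO peaks over these genes met one of the other line. In the same window 15 of 41 other LOVO peaks and 13 of 23 other RKO peaks did.

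ZNF69 had the most bases under both lists, 12.0 kb. Of these 7.16 kb lie in ZNF700, where all LOVO coverage was also under the RKO peak. In ZNF562 4.57 kb lay under both lists, near the start of the gene, and in ZNF426 4.10 kb. In ZNF433 only 0.991 kb did. For the 15 genes marked in LOVO only at 8 to 13 Mb, the median distance from the body to the nearest RKO peak was 16.6 kb (0.511 to 158 kb), and 7 of them lay within 10 kb of one. For the 15 at 19 to 25 Mb it was 47.1 kb (3.93 to 658 kb), with 3 within 10 kb.

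The position of the mark within the gene differed between the lines. In LOVO the peaks lay toward the end of the gene, where the zinc finger exon typically lies, and in RKO they were spread along the body. The strand was taken from the RefSeq promoter table, which holds 73 of the 84 genes. ZNF559, ZNF559-ZNF177, ZNF763, ZNF506, ZNF253, ZNF738, ZNF676, ZNF729, ZNF98, ZNF99 and ZNF728 were not oriented. Of the LOVO bases in these bodies, 75.0% lay between the midpoint and the end, and 41 of 50 marked genes had more bases on that side than on the other. In 33 of the 50 all covered bases lay there. In RKO 54.8% of the bases lay past the midpoint, with 11 of 23 marked genes leaning to the end and 12 to the start. Of the 150 kb of RKO bases, ZNF69 held 23.1 kb and ZNF700 16.1 kb, with 78.8% and 79.6% past the midpoint. These 2 genes overlap and both count the same RKO peak of 16375 bp. The RKO share fell below the midpoint, to 43.2%, when each gene had the same weight, and in LOVO it was then 81.2%.

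The 2 clusters shared the LOVO pattern. Past the midpoint lay 71.3% of LOVO bases at 8 to 13 Mb and 77.6% at 19 to 25 Mb, with 22 of 30 and 13 of 14 marked genes leaning to the end. In RKO the shares were 59.7% and 15.6%, the second from 5 genes, of which 4 leaned to the start. The first share includes the RKO peak that ZNF69 and ZNF700 both count. Other ZNF genes leaned the same way in LOVO, with 68.7% on the long arm and 63.6% on other chromosomes. In RKO the long arm genes had 66.0% past the midpoint and those of other chromosomes 46.9%. Protein-coding genes that are not ZNF genes had 43.3% in LOVO and 42.6% in RKO.

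The lean was seen also in genes that both lines marked. Of 20 oriented genes marked in both, the share past the midpoint was higher in LOVO in 11, higher in RKO in 4 and equal in 5. ZNF14 is an example, with all LOVO bases past the midpoint and no RKO base there. Of 30 oriented genes marked in LOVO only, 26 leaned to the end. Among the genes leaning to the start in LOVO was ZNF91, all of whose LOVO bases lay before the midpoint of the annotated span. In ZNF562 the single LOVO peak also lay before the midpoint.

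**Figure D4:**
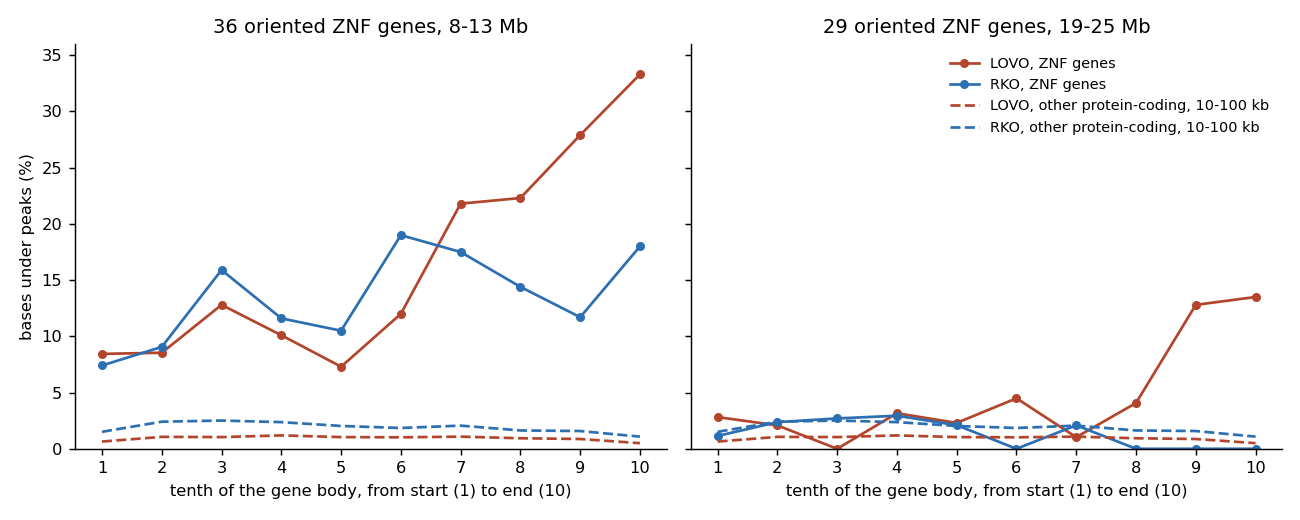
Percent of bases under peaks (vertical axis) in 10 equal segments of the gene body from start to end (horizontal axis), for 36 oriented ZNF genes at 8 to 13 Mb (left) and 29 at 19 to 25 Mb (right), with other protein-coding genes of 10 to 100 kb dashed. LOVO reaches 33.3% in the last segment on the left and 13.5% on the right, while RKO is at 18.0% and 0%.

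Along the body, LOVO coverage of the 73 oriented genes was 4.89% in the first of 10 equal segments and 21.1% in the last. The RKO values were 3.58% and 7.41%, with the highest value, 9.0%, in segment 7. In absolute distance the LOVO mark was concentrated in the last 6 kb before the gene end, where 23.8% to 31.0% of the bases in each 1-kb bin lay under a peak. It was 11.5% in the first kb after the end and 5.19% in the next. RKO had 3.22% to 9.01% in the same 6 bins. At 8 to 13 Mb the LOVO value reached 47.9% between 1 and 2 kb before the end, and at 19 to 25 Mb 22.0% between 2 and 3 kb before it. RKO had 0% in all 6 bins at 19 to 25 Mb. For ZNF genes of the long arm the LOVO values in these 6 bins were 6.91% to 9.93%, and for those of other chromosomes 12.9% to 17.1%.

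**Figure D5:**
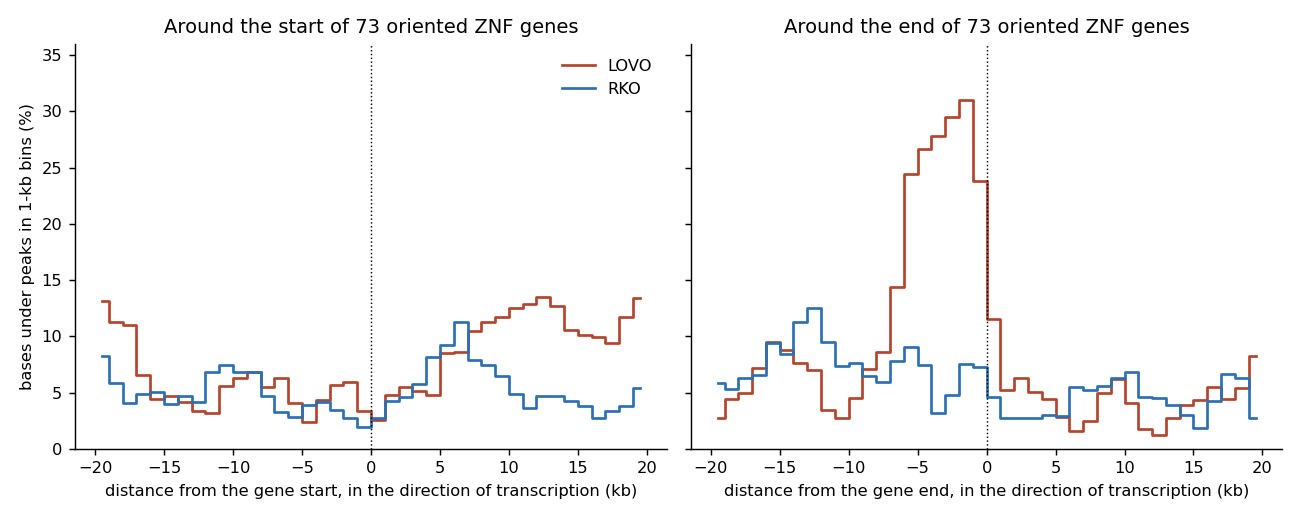
Percent of bases under peaks (vertical axis) in 1-kb bins from 20 kb before to 20 kb after the gene start (left) and the gene end (right) of 73 oriented ZNF genes, with distance in the direction of transcription on the horizontal axis. The LOVO line stands at 23.8% to 31.0% over the 6 kb before the end and drops to 11.5% just after it, while LOVO is at 2.60% in the first kb of the gene.

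Gene starts lay under a peak in fewer of these genes than gene ends. The annotated start lay under a peak in 1 of 50 marked genes in LOVO (ZNF266) and in 2 of 23 in RKO (ZNF560 and ZNF562), while the annotated end did in 13 and 5. Over all 73 oriented ZNF genes, marked or not, the start was covered in 1.37% in LOVO and 2.74% in RKO, and the end in 17.8% and 6.85%. Over all oriented protein-coding genes these shares were lower, 0.436% and 0.727% for the start and 0.847% and 1.08% for the end. Among marked genes only, the start was covered in LOVO in 2.0% of the ZNF genes and 2.61% of genes that are not ZNF genes, and in RKO in 8.70% and 3.51%. Genes with the end under a LOVO peak included ZNF426, ZNF440, ZNF69, ZNF700, ZNF433 and ZNF564, and in 10 of the 13 the gene lay at 8 to 13 Mb. From the start of marked genes to the nearest peak the median distance was 9.24 kb in LOVO, against 1.53 kb from the end. In RKO both medians were 5.77 kb. ZNF266 was named after its values were seen.

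The RefSeq promoter table gives windows from 250 bases before to 50 bases after a gene start, with 78 windows for the 73 genes. Only 4 met a peak: those of ZNF266, ZNF426 and ZNF846 in LOVO and that of ZNF562 in RKO. A window can sit at a start other than the annotated one. No window of ZNF560 met a peak, though an RKO peak from 9504317 to 9506899 covered its annotated start. Against all protein-coding windows, where 0.519% met a LOVO and 0.840% an RKO peak, the shares were 3.85% and 1.28%. The bases before the start are shown for the 4 windows that met a peak, the only ones of the 78. They are also shown for ZNF121, whose body had the highest covered share while its promoter had no peak. All 5 lie on the minus strand of chromosome 19 in GRCh38.p14 and are written 5′ to 3′. This set was chosen after the values were seen, and the sequences are RefSeq's. Capitals mark TGACGTCA, the palindromic cAMP response element.
ZNF266 (chr19:9435574-9435823): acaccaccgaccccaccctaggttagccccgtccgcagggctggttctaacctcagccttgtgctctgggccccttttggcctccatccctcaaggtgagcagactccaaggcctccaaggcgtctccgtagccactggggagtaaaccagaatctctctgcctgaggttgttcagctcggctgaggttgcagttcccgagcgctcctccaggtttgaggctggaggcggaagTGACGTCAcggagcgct
ZNF426 (chr19:9538646-9538895): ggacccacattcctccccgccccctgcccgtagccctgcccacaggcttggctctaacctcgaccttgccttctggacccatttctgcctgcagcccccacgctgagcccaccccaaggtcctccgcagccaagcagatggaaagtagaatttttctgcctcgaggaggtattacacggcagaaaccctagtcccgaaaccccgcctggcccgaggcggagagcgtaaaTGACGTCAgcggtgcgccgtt
ZNF121 (chr19:9584505-9584754): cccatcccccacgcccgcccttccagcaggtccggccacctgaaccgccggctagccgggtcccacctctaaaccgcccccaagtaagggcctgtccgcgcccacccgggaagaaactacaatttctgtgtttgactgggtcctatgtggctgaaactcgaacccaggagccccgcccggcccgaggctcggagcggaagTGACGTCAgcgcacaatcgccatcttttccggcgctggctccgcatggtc
ZNF562 (chr19:9675101-9675350): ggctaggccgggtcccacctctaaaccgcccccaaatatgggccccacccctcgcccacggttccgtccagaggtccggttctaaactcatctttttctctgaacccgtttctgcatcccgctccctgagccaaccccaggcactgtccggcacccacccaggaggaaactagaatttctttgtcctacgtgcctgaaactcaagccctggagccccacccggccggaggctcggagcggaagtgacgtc
ZNF846 (chr19:9768739-9768988): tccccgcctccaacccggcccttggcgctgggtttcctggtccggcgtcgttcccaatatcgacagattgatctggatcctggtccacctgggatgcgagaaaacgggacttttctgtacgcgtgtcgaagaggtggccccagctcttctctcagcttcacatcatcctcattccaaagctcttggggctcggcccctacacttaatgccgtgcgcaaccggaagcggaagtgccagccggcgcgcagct

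For ZNF266 a LOVO peak from 9433163 to 9437491 covered all 250 bases shown. For ZNF426 a LOVO peak of 2001 bp starting at 9538782 covered 114 of them, and that peak lies upstream of the gene. For ZNF562 the RKO peak from 9670326 to 9675204 ran out of the body across the start and covered 104. The LOVO peak of ZNF562, from 9669356 to 9674898, stopped 0.202 kb short of the start. In ZNF846 the window lies inside the annotated body, at an internal start, and a LOVO peak covered all of it. In ZNF121 the nearest LOVO peak lay 0.901 kb from the start.

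Of these 5 promoters, 4 share that element. TGACGTCA, searched on both strands of the 300-base windows, was in 5 of 78 windows (6.41%), those of ZNF266, ZNF426, ZNF121, ZNF561 and ZNF562, against 500 of 22155 protein-coding windows. In ZNF562 it crosses the start and so is not in the bases shown. The motif was picked after reading these sequences, and a match describes the letters only. The 250 bases before the start held a median of 13 CG dinucleotides at 8 to 13 Mb and 8 at 19 to 25 Mb, against 16 over all protein-coding windows. CG was present in all 78 windows and in 96.8% of all.

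Genes linked to the silencing pathway in which KRAB zinc finger proteins act were marked about as often as other genes or somewhat more. Of 26 such genes, a list that includes H3K9 demethylase genes, 5 had a LOVO peak (19.2%, against 15.0% of all protein-coding genes). An RKO peak was found in 7 (26.9%, against 19.8%), and the 5 were among the 7. Among the marked genes, ATF7IP, KDM4B, EHMT1, ATRX and KDM4C have bodies of 137249 to 454786 bp, and SETDB1 and MORC2 of 38475 and 43645 bp. The median over all protein-coding genes was 24.2 kb, and the part of length was not tested. TRIM28, the corepressor bound by the KRAB domain, and CBX1, CBX3 and CBX5, which encode HP1 proteins, had no peak in either list. ATF7IP, a partner of SETDB1, had 29.4 kb under LOVO peaks against 20.5 kb under RKO peaks. SETDB1 had 2.51 and 5.27 kb. MORC2, an effector of the HUSH complex, and the H3K9 demethylase gene KDM4B had peaks in both lines, over 2.97 and 2.23 kb in RKO. The methyltransferase gene EHMT1 had 4.52 and 40.6 kb. ATRX and KDM4C were marked in RKO only.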

How the data were processed

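ChIP-seq for H3K9me3 was deposited as 1 peak list per cell line, with chromosome, start and end of each region and no score. Tools listed in the submitters' processing notes, with neither role nor sequence of use, are HOMER 4.11, Picard 2.26.0, Bowtie2 2.4.2, Trim Galore 0.6.6 and FastQC 0.11.9, and the build is hg38. How peaks were called, with which inputs, and whether libraries were pooled is not stated by these notes, and depth is unknown.

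Peaks on chromosomes 1 to 22 and X were intersected with RefSeq gene spans of GRCh38.p14, the same build as hg38. The authors' deposited starts were read as counting from 0. Strand and promoter sequence came from the RefSeq promoter table. No protein table was used, so the planned counts of zinc fingers and KRAB domains were not made. The overlap code was tested on simulated data, regions planted over some of the 19970 genes, with 0 mismatches in 26859 values checked. For planted genes the check was that covered bases were not below the planted length. The split of bodies by strand was not tested in this way. By rule, the text names the 8 most covered genes of each cluster (summed over LOVO and RKO), the 4 most covered elsewhere, up to 5 with most bases among those with a peak in a single line, for each line, and the 4 longest without a peak. The ZNF genes, the gene lists and the alternatives were chosen with earlier results of these data known. Python 3.11.15, numpy 2.4.6, pandas 2.3.3, Biopython 1.88 and matplotlib 3.10.9 were used.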

Additional observations from a re-analysis of the deposited data

How the results depend on the processing

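No paired analysis was possible because the lists carry no replicate numbers and no result comes from a test. For the same reason no replicate could be left out. Of 95 recomputed values, 71 stayed within 1.5 times the reported one and on its side, 23 moved further and 1 changed side. Some of the 71 could not move. Lists of equal size shortened only the RKO list, so values from LOVO alone stayed as they were. Leaving out genes with the whole body under a peak removed none from the position shares. Where a gene needed 10% coverage, 33 genes were marked in LOVO, 16 in RKO, 11 in both and 22 in LOVO only, with 3 (LOVO) and 1 (RKO) at 19 to 25 Mb. With at least 25%, the counts were 13, 7, 3 and 10, with 10 and 6 at 8 to 13 Mb and 0 and 1 at 19 to 25 Mb. With only peaks wider than their list's median width, 37 genes were marked in LOVO, 17 in RKO and 11 in both, with 21 in LOVO at 8 to 13 Mb, 11 and 2 at 19 to 25 Mb, and 2.36% and 0.480% of the bodies covered there. With the RKO list limited to its 14901 widest peaks, as many as LOVO has, 2 genes were marked in RKO only. In these settings more genes were marked in LOVO than in RKO in both clusters, except under the 25% rule at 19 to 25 Mb. Shares over all protein-coding genes were not computed under the 25% rule, for the wider peaks or for the limited RKO list. The RKO share of bases past the midpoint went from 54.8% to 43.2% when each gene had the same weight, that is, to the other side of the midpoint, and the cause was not tested. Merging overlapping bodies left 79 and moved no value by more than 1.5 times, but it was not applied to the shares past the midpoint.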

Other observations

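ZNF pseudogenes of the same windows are few. Of 4 at 8 to 13 Mb none had a LOVO and 1 an RKO peak, and of 7 at 19 to 25 Mb 2 had a LOVO and 1 an RKO peak. LOVO peaks covered 6.89% and RKO peaks 3.38% of the pseudogene bodies at 19 to 25 Mb, against 4.30% and 1.08% for the protein-coding ZNF genes. At 8 to 13 Mb RKO peaks covered 12.4% against 12.8%. Median lengths were 12.2 kb at 8 to 13 Mb and 1.69 kb at 19 to 25 Mb. At 19 to 25 Mb, 28 LOVO and 16 RKO peaks touched no annotated gene, against 6 and 11 at 8 to 13 Mb. The median length of marked and unmarked ZNF genes at 19 to 25 Mb was 38.8 and 33.3 kb in LOVO, and 34.6 and 35.0 kb in RKO.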
